A study of Saccharomyces cerevisiae with 10 samples.

Results

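The genes described here encode the 3 subunits of the Asi ubiquitin ligase (ASI1, ASI2 and ASI3), the transcription factors STP1 and STP2, and 5 amino acid permeases that those factors activate (AGP1, GNP1, BAP2, BAP3 and TAT1). They were chosen by gene symbol. Each of the 10 genes is read by 1 probe set, out of 5449 named Saccharomyces cerevisiae genes on 5498 probe sets. The tested yeast carried the plasmid prs426GPD-αENaC-HA, which puts HA-tagged αENaC, the α subunit of a sodium channel of epithelia, behind the GPD promoter, and gave 3 arrays. The comparison yeast carried the vector alone, pRSGPD426 in the labels, and gave 7 arrays. Both groups grew at 26 °C in selective medium to mid log phase, and the labels give no strain genotype. The subunit was expressed without a stated partner subunit of the channel, from a plasmid, and its own transcript is not measured here.

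The sample titles carry running numbers, and arrays resembled each other by those numbers. Set 1 holds the numbers 1 to 4 (αENaC 1 and 2, controls 1 and 2), set 2 the numbers 5 and 6 (αENaC 3, control 3) and set 3 the numbers 11 to 14 (controls 4 to 7). The labels do not call these sets batches. Set 3 has no αENaC array, so it holds no comparison of the groups of its own. The main test has no term for the set, so a shift of set 3 enters its difference between the groups. Across the tested probe sets, 2 arrays of 1 group correlated at 0.997 (median) when they shared a set and at 0.959 when they did not. As a check of the organism, medians were compared after each array's lowest score was subtracted. The median of probe sets for S. cerevisiae genes was 25.6 to 44.4 times that of the 1746 with names from outside its annotation. The size of this ratio depends on the subtraction, so it is not a ratio of signal brightness. Nothing says that all arrays came from separate cultures, so the spread behind the p-values may be partly technical, and the number of arrays limits the precision.

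Budding yeast senses amino acids outside the cell with the plasma membrane sensor Ssy1, Ptr3 and Ssy5. The protease Ssy5 cuts an inhibitory N-terminal part from Stp1 and Stp2, which are made as latent factors, and the shortened factors enter the nucleus and switch on permease genes. The Asi ligase sits in the inner nuclear membrane, where it marks uncut Stp1 and Stp2 that leak into the nucleus, and also misplaced membrane proteins, for degradation by the proteasome. Arrays read transcript levels, so cutting of Stp1 and Stp2 and the activity of the ligase were not measured. In bulk cultures, a different mix of cells and a different amount of transcript per cell cannot be told apart.

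ASI3 was higher in αENaC yeast, and it was the 1 gene of the 10 that passed the test. ASI3 encodes one of the subunits with a RING domain, the part of a ubiquitin ligase that works with the conjugating enzyme. Its normalized log2 level, on a scale where 0 is about the mean signal of an array, was 0.34, 0.34 and 0.30 on the αENaC arrays. On the control arrays its lowest level was −0.24, the median −0.11 and the highest 0.03. All 3 αENaC arrays lay above all 7 controls, and the nearest pair was αENaC 3 and control 3, both of set 2. The mean was 0.32 ± 0.02 in αENaC and −0.12 ± 0.09 in control yeast (SD, n = 3 and 7). The difference was 0.45 ± 0.07 on the log2 scale (SE, limma adjusted p = 0.0158), or 1.36-fold. Taken in each set alone, it was 0.44 in set 1 (2 against 2 arrays) and 0.27 in set 2 (1 against 1). The call was lost without αENaC 1 (0.44, limma adjusted p = 0.136), without αENaC 2 (0.44, adjusted p = 0.105), with median centring of the arrays (0.47, adjusted p = 0.0691) and with no further normalization (0.63, adjusted p = 0.0768), where the median of all probe sets shifted to 0.16. It was also lost at 0.38 with the replicate number as a block, a fit without controls 4 to 7 (limma adjusted p = 0.148), at 0.38 with sets 1 and 2 alone (adjusted p = 0.128) and at 0.41 with near-identical arrays averaged (adjusted p = 0.998).

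The other Asi subunits did not pass the test. ASI1, the second RING subunit, was at 0.72, 0.73 and 0.56 in αENaC yeast, against a lowest level of 0.25, a median of 0.56 and a highest of 0.83 in controls. Its difference was 0.14 ± 0.11 (limma adjusted p = 0.548), with a 95% interval from −0.11 to 0.39. ASI2, a membrane subunit without a RING domain, was at −0.08, −0.07 and −0.53 in αENaC yeast, against −0.46, −0.30 and −0.11 as the lowest, median and highest control level. Its difference was 0.08 ± 0.11 (limma adjusted p = 0.751), with a 95% interval from −0.17 to 0.32. For both genes the groups overlapped, and the sets went opposite ways. ASI1 was 0.16 higher in αENaC within set 1 and at −0.27 within set 2, and ASI2 was 0.20 higher within set 1 and at −0.42 within set 2. In set 2, αENaC 3 had the lowest ASI2 level of the 10 arrays and control 3 the highest ASI1 level. ASI3 was the 1 subunit gene of the 3 at a positive difference in set 2. The ASI1 difference was 0.016 with a fixed set block, a replicate block and sets 1 and 2 alone, 0.03 with the set as a random block, 0.04 with near-identical arrays averaged and 0.09 without control 6. That of ASI2 was −0.0037 with the fixed set block and with the replicate block, and 0.0053 with the set as a random block. It was 0.23 without αENaC 3, 0.0016 without αENaC 1, −0.0014 without αENaC 2 and 0.05 without control 5. With no further normalization ASI1 was at 0.29 and ASI2 at 0.28.

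**Figure D1:**
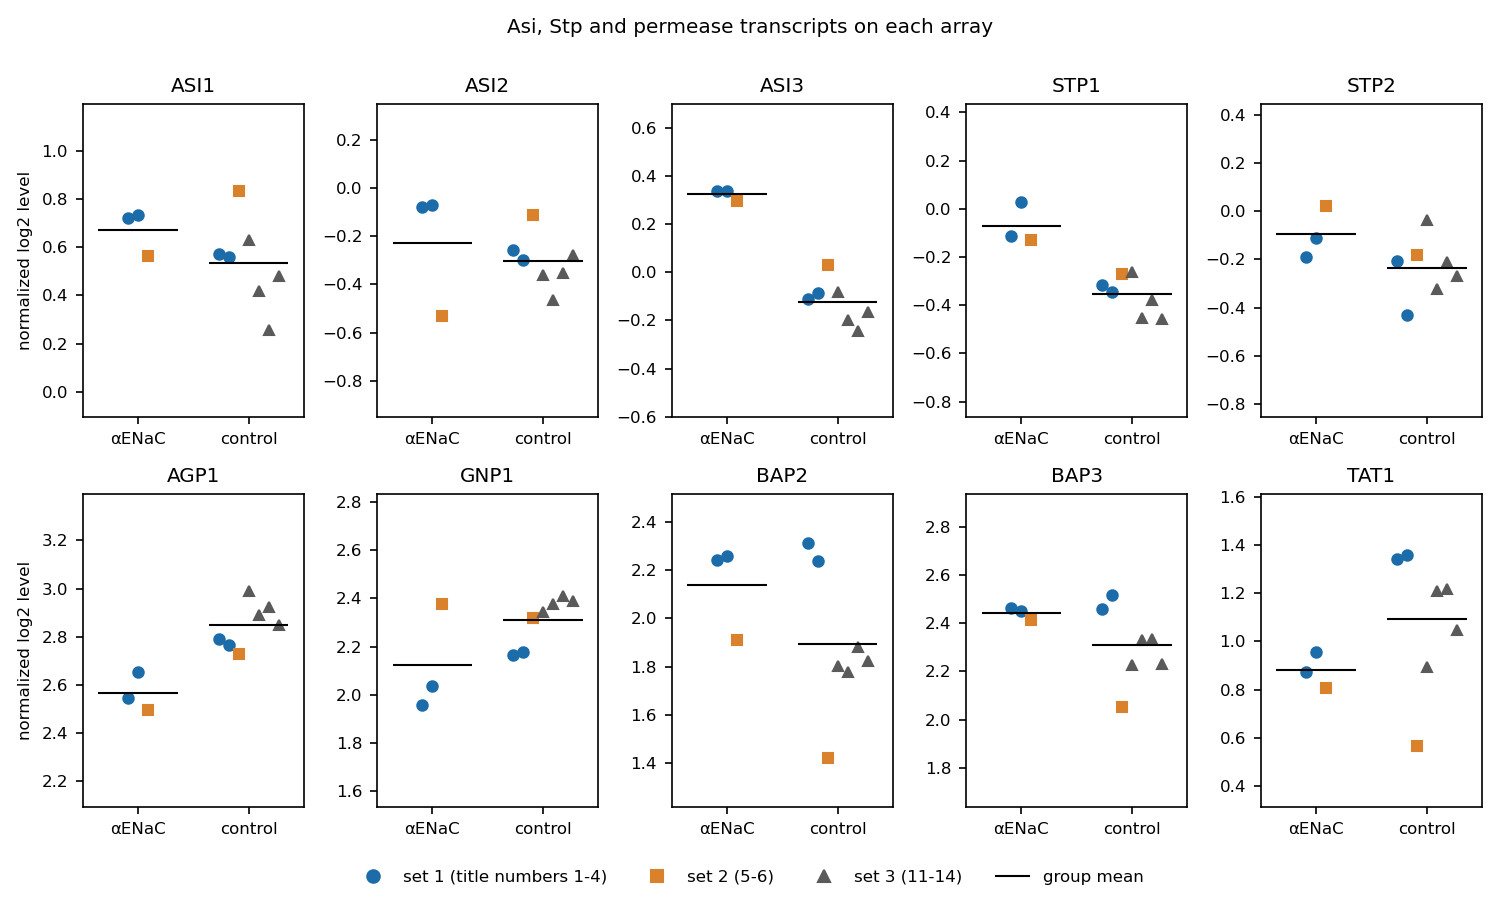
Normalized log2 level of each gene (vertical axis, the same span of 1.3 in every panel) on the 3 αENaC arrays and 7 control arrays, with 1 point per array, shapes and colours for the title number sets, and a line for the group mean. The αENaC points of ASI3 and STP1 lie above all controls and those of AGP1 below all controls, while control 3 (square) stands lowest for BAP2, BAP3 and TAT1.

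Neither Stp factor passed the test, though both were at positive differences in both sets. STP1 encodes a zinc finger factor that activates permease genes. Its level was −0.11, 0.03 and −0.13 on the αENaC arrays, against −0.46, −0.34 and −0.26 as the lowest, median and highest control level. The αENaC arrays lay above all controls, by a narrow gap. The difference was 0.28 ± 0.07 (SE, limma adjusted p = 0.0808), or 1.22-fold. In set 1 it was 0.29 and in set 2 it was 0.14. STP2 encodes a related factor with overlapping targets. It was at −0.19, −0.11 and 0.02 in αENaC yeast, against −0.43, −0.21 and −0.04 as the lowest, median and highest control level, so the groups overlapped. Its difference was 0.14 ± 0.09 (limma adjusted p = 0.415), with a 95% interval from −0.05 to 0.34. In set 1 it was 0.17 and in set 2 it was 0.20. With the title number set as a random block, STP1 was called higher at 0.24 (limma adjusted p = 0.0376), and with the set as a fixed block it was not (adjusted p = 0.0563). The random block called 358 of 5498 probe sets higher, against 75 in the main test. The STP2 difference was 0.09 without αENaC 3, and with no further normalization STP1 was at 0.49 and STP2 at 0.35.

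No permease gene passed the test, and their differences had both signs. AGP1 encodes a permease of broad specificity for neutral amino acids. Its level was 2.55, 2.66 and 2.50 on the αENaC arrays, against 2.73, 2.85 and 2.99 as the lowest, median and highest control level. Every αENaC array lay below every control, by a narrow gap, with αENaC 2 at 2.66 nearest to control 3 at 2.73. The difference was −0.28 ± 0.08 (SE, limma adjusted p = 0.0925), or 0.822-fold. In set 1 it was −0.18 and in set 2 it was −0.23. With the set as a fixed block the difference was −0.20 and AGP1 was called lower (limma adjusted p = 0.0454), as it was with the set as a random block (−0.21, limma adjusted p = 0.0364). Of 5498 probe sets, the fixed block called 377 lower and the random block 259, against 20 in the main test. The scaling moved the AGP1 difference, to −0.56 with median centring and −0.40 with no further normalization.

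GNP1, the high-affinity glutamine permease gene and a close relative of AGP1, was at 1.96, 2.04 and 2.38 on the αENaC arrays. The control levels were 2.17 and 2.18 in set 1, 2.32 in set 2 and 2.34 to 2.41 in set 3. Both groups were low in set 1 and higher elsewhere, so the groups overlapped. The difference was −0.19 ± 0.10 (limma adjusted p = 0.351), with a 95% interval from −0.41 to 0.04. In set 1 it was −0.17 and in set 2 it was 0.06. The GNP1 difference was −0.10 without αENaC 1, −0.31 without αENaC 3, −0.36 with median centring, −0.10 with the set as a fixed block and −0.12 with near-identical arrays averaged.

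BAP2 and BAP3 encode related permeases for branched-chain amino acids. BAP2 was at 2.24, 2.26 and 1.91 on the αENaC arrays, against 2.31 and 2.24 on controls 1 and 2, 1.42 on control 3 and 1.78 to 1.88 on controls 4 to 7. BAP3 was at 2.46, 2.45 and 2.41 on the αENaC arrays, against 2.46 and 2.52 on controls 1 and 2, 2.05 on control 3 and 2.23 to 2.33 on controls 4 to 7. Both genes were near-level between the groups in set 1, at −0.02 for BAP2 and −0.03 for BAP3. In set 2 they were higher in αENaC 3 than in control 3, by 0.49 for BAP2 and 0.36 for BAP3. Over all arrays the difference was 0.24 ± 0.18 for BAP2 (limma adjusted p = 0.489), with a 95% interval from −0.15 to 0.63. That of BAP3 was 0.13 ± 0.10 (limma adjusted p = 0.491), with an interval from −0.08 to 0.35, and it turned to −0.07 when each array was centred on its median in place of quantile normalization. BAP2 was at 0.11 with that centring and at 0.15 with the set as a fixed block.

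TAT1, a permease gene for tyrosine and some other amino acids, lies next to BAP2 in the genome, with no protein-coding gene between them in the R64 RefSeq table. It was at 0.87, 0.96 and 0.81 on the αENaC arrays, against 1.34 and 1.36 on controls 1 and 2, 0.56 on control 3 and 0.89 to 1.22 on controls 4 to 7. The TAT1 difference was thus −0.43 in set 1, where both αENaC arrays lay below both controls, and 0.24 in set 2. The neighbouring BAP2 was at −0.02 in set 1 and at 0.49 in set 2. Over all arrays the TAT1 difference was −0.21 ± 0.16 (limma adjusted p = 0.507), with a 95% interval from −0.56 to 0.14. It was −0.06 with no further normalization and −0.13 with near-identical arrays averaged.

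**Figure D2:**
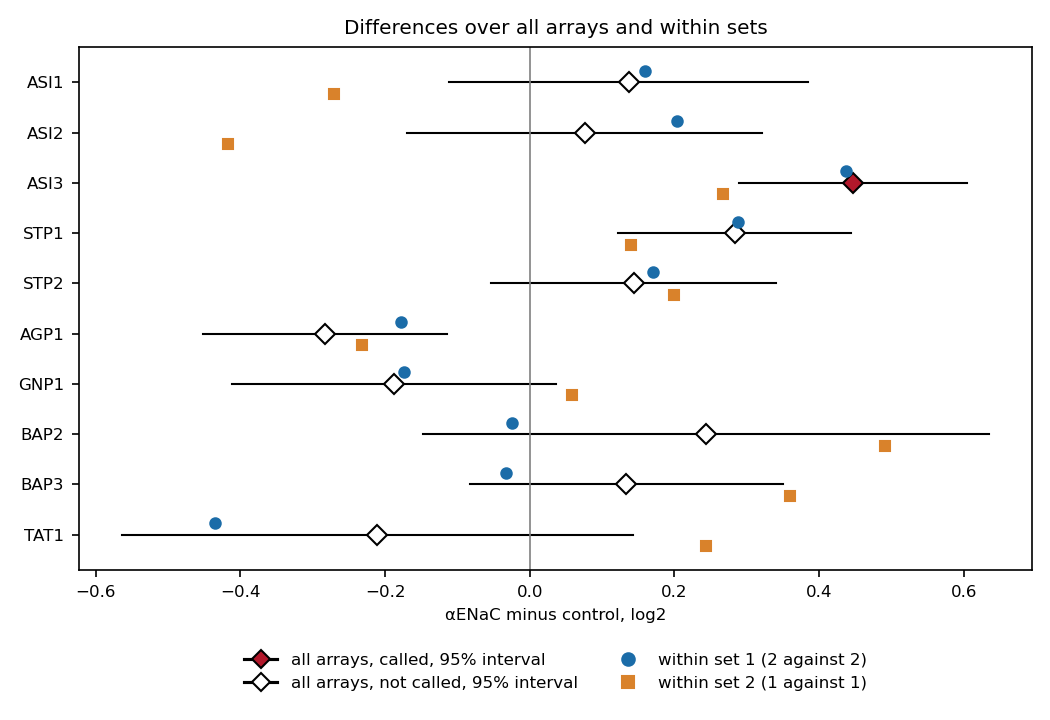
Difference between αENaC and control yeast on the log2 scale (horizontal axis) for each gene: diamonds with 95% intervals for all 3 and 7 arrays, filled where the limma test passed, circles for set 1 and squares for set 2. ASI3, STP1, STP2 and AGP1 keep their sign in both sets, and the other 6 genes do not.

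Over the 10 genes, 1 was called higher and 0 lower by limma, against 1.36% of the 5498 probe sets called higher and 0.364% called lower (1.73% in either direction). At an unadjusted p under 0.05, 3 of the 10 passed (ASI3 and STP1 higher, AGP1 lower), against 998 of all 5498. The αENaC arrays lay above all controls for ASI3 and STP1 and below all controls for AGP1. Among all probe sets, 4.97% lay wholly above and 3.62% wholly below (8.58% in either direction). The median difference of the 10 genes was 0.14, with 7 positive, beside a median of 0.02 and 53.8% positive over all probe sets tested. Within the sets the median of the 10 was 0.07 in set 1 and 0.17 in set 2. For 4 of the 10 the sign was the same in both sets, beside 51.8% of all probe sets. With the set as a fixed block ASI3 was called higher (0.38, limma adjusted p = 0.00730) and AGP1 lower, against 7.38% and 6.86% of all probe sets called in those directions (14.2% in either). The spread in that fit comes largely from near-identical arrays within sets.

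The difference within set 1 and that within set 2 were then set against each other in 1 limma model with a level for each group and set. In that test 4 of the 10 genes passed, against 17.4% of all probe sets. ASI2 was more positive in set 1 than in set 2, by 0.62 ± 0.11 (SE, limma adjusted p = 0.0149). The permease genes BAP2 (−0.51 ± 0.09, adjusted p = 0.0148), BAP3 (−0.39 ± 0.10, adjusted p = 0.0375) and TAT1 (−0.68 ± 0.19, adjusted p = 0.0468) were more negative in set 1 than in set 2. With median centring BAP3 (−0.36, limma adjusted p = 0.181) and TAT1 (−0.65, adjusted p = 0.109) did not pass. Set 2 has 1 array of each group, so its spread was taken from arrays of the other sets, most of them near-identical, and these p-values may be too small. Most of the 10 general stress markers, a list that includes HSP12, HSP26 and CTT1, also went opposite ways in the sets. All 10 were positive within set 1, with a median of 1.51. Within set 2, 1 was positive (HSP12, at 0.59), and the median was −0.57. The median marker level was 1.75, 1.84 and 1.45 on the αENaC arrays, against 0.26 and 0.31 on controls 1 and 2, 2.03 on control 3 and 1.31 to 2.02 on controls 4 to 7. The part of this stress difference in the levels of the permease and ASI genes was not tested.

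Levels also differed among the control arrays alone. Relative to controls 1 and 2, the mean of controls 4 to 7 was −0.45 for BAP2, −0.26 for TAT1 and −0.21 for BAP3, and 0.21 for GNP1 and 0.14 for AGP1. For these genes other than AGP1, this is larger in size than the difference between the groups. The 3 ASI genes and STP1 were at −0.12 to −0.06 between the same controls, and STP2 at 0.11.

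The rest of the pathway was read from lists of 43 further genes, of which all were measured and 42 lay above background, taken as the 95th percentile of the probe sets named outside the annotation. None of the 43 passed the limma test, against 1.73% of all probe sets, and their median difference was 0.10 with 27 positive. With the set as a fixed block 6 were called higher and 4 lower, against 7.38% and 6.86% of all probe sets. Those 10 genes are named here after their values were seen: MUP1, MUP3, STP4, PTR3, GRR1 and UBC4 were higher, and GAP1, CAN1, HIP1 and SKP1 lower. In the main test, without the block, GRR1 (−0.02) and SKP1 (0.10) had the opposite sign. At an unadjusted p under 0.05, 7 of the 43 passed, against 998 of all 5498 probe sets. They were UBC4, NPL4, CDC48 and ALP1 (which lay below background) at positive differences and GAP1, LYP1 and DAL80 at negative ones. Of the 3 sensor genes, PTR3 was at 0.18 ± 0.13, the receptor gene SSY1 at 0.18 ± 0.10 and the protease gene SSY5 at 0.07 ± 0.18, with limma adjusted p from 0.391 to 0.879. With the set as a fixed block PTR3 was at 0.37 (limma adjusted p = 0.0388). The 7 signalling genes, which encode casein kinases, ubiquitin ligase parts and a phosphatase subunit, had a median of 0.10. Among them CDC53, a cullin of the SCF ubiquitin ligase, was at 0.42 ± 0.21 (limma adjusted p = 0.332), but at 0.0049 in set 1 and 0.13 in set 2. The coactivator gene DAL81 was at −0.20 ± 0.11 (limma adjusted p = 0.351). STP4, a relative of STP1, was at 0.22 ± 0.13 (limma adjusted p = 0.377), and at 0.41 with the set as a fixed block (adjusted p = 0.0290).

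Among genes that work with the Asi ligase, NPL4, a cofactor of the Cdc48 segregase, was at 0.35 ± 0.10 (SE, limma adjusted p = 0.0973). In set 1 it was at 0.37 and in set 2 at −0.01. UBC4, a ubiquitin-conjugating enzyme gene, was at 0.24 ± 0.07 (limma adjusted p = 0.131). Its levels were 3.06 to 3.11 in αENaC and 2.70 to 2.95 in control yeast, with no overlap. UBC4 was the 1 gene of the 43 wholly above the controls, against 4.97% of all probe sets. With the set as a fixed block it was at 0.32 (limma adjusted p = 0.00924). CDC48 itself was at 0.20 ± 0.09 (limma adjusted p = 0.261). These genes come from a list of 9 that joins partners and substrates of the ligase, ERG11 and NSG1 among them. The median of the 9 was 0.16, with 7 positive.

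Of the 15 amino acid and peptide permease genes outside the 10, none was called. GAP1, the general amino acid permease gene, was at −0.44 ± 0.10 (SE, limma adjusted p = 0.0557). Its levels of 2.27 to 2.43 in αENaC and 2.56 to 2.97 in control yeast did not overlap. It was the 1 gene of the 43 wholly below the controls, against 3.62% of all probe sets. The GAP1 difference was −0.18 in set 1 and −0.70 in set 2. Fitted with the set as a fixed block, GAP1 was called lower (−0.36, limma adjusted p = 0.0476). The lysine permease gene LYP1 was at −0.25 ± 0.09 (limma adjusted p = 0.183) and the peptide transporter gene PTR2, also under the sensor, at −0.63 ± 0.33 (adjusted p = 0.340). DIP5 and MUP1, under the sensor too, were at 0.20 ± 0.12 and 0.17 ± 0.16, with limma adjusted p of 0.413 and 0.611. MUP1 was at 0.29 in set 1 and 0.73 in set 2, and at 0.44 with the set as a fixed block (limma adjusted p = 0.0168). The 5 regulators of nitrogen genes had a median of −0.15. DAL80, a repressor of nitrogen genes, was at −1.24 ± 0.51 (limma adjusted p = 0.231) over all arrays and at −1.28 in set 2. In set 1 it was at 0.05, where all 4 arrays lay near or below background, at −2.16 and −2.08 in αENaC and −2.25 and −2.09 in control yeast. Its mean level was −2.07 in αENaC yeast, against a background of −2.03, and −0.83 in control yeast.

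**Figure D3:**
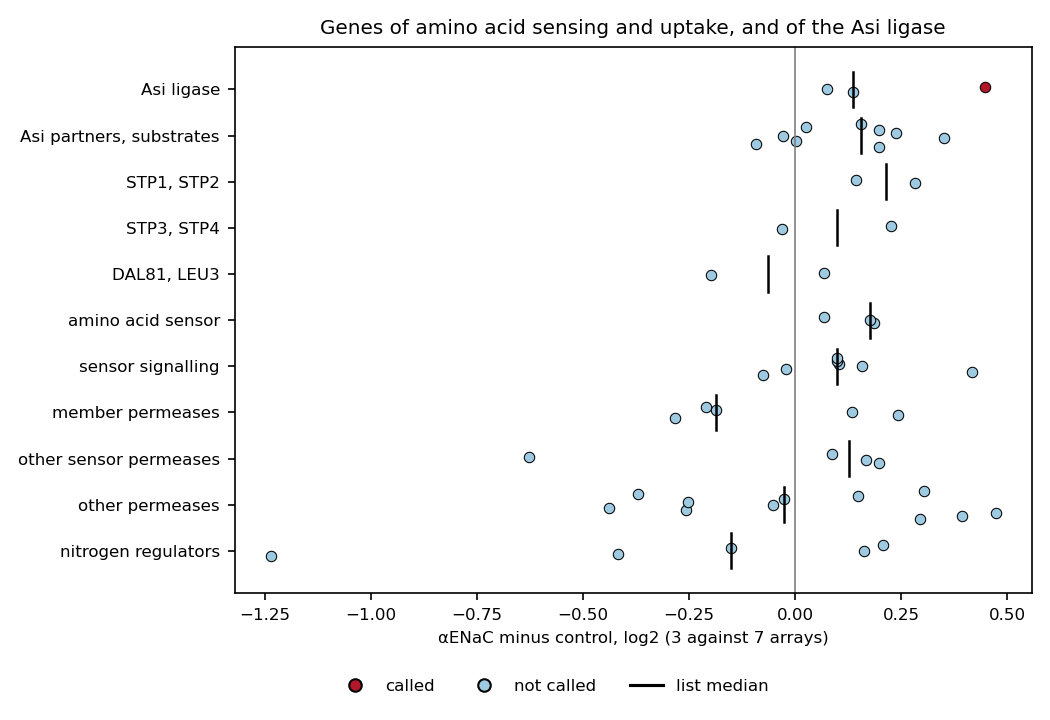
Difference between αENaC and control yeast on the log2 scale (horizontal axis) for the 10 genes and 43 further genes, 1 point per gene, by list, with a bar at each list's median. ASI3 is the 1 called gene (dark), and the permease lists spread to both sides of 0.

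By Pearson correlation of normalized log2 levels over the 10 arrays, the probe sets most like ASI3 were those of ERO1 (0.993), SSA3 (0.983) and URA8 (0.972). ERO1 encodes an oxidase of disulfide formation in the endoplasmic reticulum, SSA3 a cytosolic Hsp70 and URA8 a CTP synthase. Those most like STP1 were RIM15 (0.961), CUP1-1 (0.955) and REX3 (0.949), and those most like AGP1 were PDS1 (0.950), MEP3 (0.949) and QDR3 (0.946). Among the 10 genes themselves, the highest values were 0.930 between ASI3 and STP1 and 0.928 between BAP2 and BAP3, and the lowest was −0.88 between ASI3 and AGP1. These values are descriptions: the arrays share sets, and most arrays of a set and group are near-identical.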

How the data were processed

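Single-colour arrays of 3 αENaC and 7 vector control samples were used. Per the labels' protocols, RNA came from hot phenol extraction and a column, and the cRNA from a 3' IVT Express kit. The deposited value is a score, and each array's 10715 scores have mean 0 and SD 1. The authors' summary and background steps are not given in the sources used here.

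Each array's lowest score was subtracted and the result divided by the size of that score, so additive background stays unknown. After a pseudocount of 0.03, log2 was taken and arrays were quantile normalized. Differences are on this log2(value + 0.03) scale, which understates changes of low genes. Probe sets were named by the platform annotation and the R64 RefSeq table. The test was limma 3.58.1 under R 4.3.3 (2-sided lmFit and eBayes with 8 residual degrees of freedom, Benjamini-Hochberg over 5498 probe sets, threshold 0.05), after a check on simulated data. The genes and lists were chosen with earlier results of these data known. In the other lists, the stress markers aside, up to 3 genes with the smallest p are described. Further genes are named because they were called with the set as a fixed block. ERG11, NSG1 and the named stress markers are given as examples of their lists, not by their p. For likeness, all tested probe sets with a spread above 0 were searched.

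Replicate numbers 1 to 3 occur in both groups. After group means were subtracted, same-numbered arrays correlated at 0.41, 0.22 and 0.17. All pass 0.1, so an alternative fit, with the replicate number as a block, treated the numbers as pairs. The main test did not. Same-numbered arrays also share a title number set, so these correlations cannot tell pairing apart from the set. The fit with the replicate block drops controls 4 to 7 and keeps 2 residual degrees of freedom. Alternatives changed the scaling, pseudocount, filter, blocks, variance model, weights, and which probe sets and arrays were used. Sequences of these genes were not used here.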

Additional observations from a re-analysis of the deposited data

Results flagged for a closer look

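For 4 genes the difference between αENaC and control yeast passed the limma test of set 1 against set 2: ASI2 (0.62, set 1 minus set 2), BAP2 (−0.51), BAP3 (−0.39) and TAT1 (−0.68). Set 2 has 1 array of each group and the spread came from mostly near-identical arrays of other sets, so the p-values may be too small. In the same test 17.4% of all probe sets passed. BAP3 and TAT1 did not pass with median centring. On BAP2, BAP3 and TAT1, control 3 was the lowest of all 10 arrays.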

How the results depend on the processing

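Of the 10 genes, 1 was called higher and 0 lower, with 95 probe sets called in all. With the replicate block the counts were 0 higher and 0 probe sets in all, and among the 10 genes it changed no call other than that of ASI3. Near-identical arrays averaged gave 0 and 0, median centring 0 and 39, no further normalization 0 and 46, and sets 1 and 2 alone 0 and 20. The probe sets called were 75 higher and 20 lower in the main test, 34 and 5 with median centring, 45 and 1 with no further normalization, where the median of all probe sets was 0.16, and 89 and 4 on the deposited scores. The set as a fixed block gave 1 higher, 1 lower and 783 in all, and as a random block 2, 1 and 617. Set 1 alone, whose arrays are near-identical within a group, gave 4, 3 and 3309. Array weights gave 7, 3 and 4126: they weighted αENaC 2 at 12.5 and control 1 at 0.220, and their estimation stopped before it converged. Leaving out 1 array gave 0 to 1 called higher, 0 called lower and 12 to 237 probe sets in all, the lowest without αENaC 1 and the highest without αENaC 3 or control 3. It was 13 without αENaC 2, and 44, 45 and 44 without control 5, 6 and 7.

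ASI3 was called under 18 of 25 alternatives, at 0.38 to 0.63 on the log2 scale (limma adjusted p from 7.84e-07 to 0.998). The lowest adjusted p came from the array weights, which called 4126 probe sets, and the highest from near-identical arrays averaged. Of the 18 calls, 8 were from fits with 1 array left out. The alternatives share most of their data, so their count is not one of independent checks. ASI2, never called at a negative value, was at −0.0037 with the set as a fixed block, with the replicate block and with sets 1 and 2 alone, at −0.024 with near-identical arrays averaged and at −0.0014 to 0.23 with 1 array left out, the lowest without αENaC 2. BAP2 was at −0.024 and BAP3 at −0.033 in set 1 alone, and BAP3 at −0.068 with median centring. The test between the sets passed for 2 of the 10 genes (ASI2 and BAP2) with median centring, against 4. The cause of these changes was not tested.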
